A study of Mus musculus with 6 samples.

Results

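The 38 genes described here mark T cells and intraepithelial lymphocytes, and they were set against 23235 gene symbols in the deposited tables of mouse duodenum. They were named one by one for their roles in T cells: the T cell receptor complex and its coreceptors, signalling just below the receptor, surface and costimulatory receptors, cytotoxic effectors, natural killer receptors, the integrin Itgae and lineage transcription factors. No measured value entered the naming rule, but the genes were chosen with earlier results of these data known. RNA was sequenced from the end of the duodenum next to the stomach of 3 mutant and 3 control mice, all 6 weeks old and of mixed background. The mutants carried 1 floxed and 1 TN allele of Nkx2.2 with Villin-Cre and a Tomato reporter (Nkx2.2flox/TN; Villin-Cre/+; Rosa26Tomato/+). Controls 1 and 2 were Nkx2.2flox/+; Rosa26Tomato/+, and control 3 was Nkx2.2flox/+ with no reporter allele listed. A floxed Nkx2.2 allele was therefore present in all 6 mice, and no control carried Cre. Villin-Cre acts in the epithelium of the gut and not in T cells, whereas the TN allele, as the genotype is written, is carried by every cell of the mutants.

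Intraepithelial lymphocytes are T cells that sit between the epithelial cells of the gut, held there by the integrin encoded by Itgae and fed by epithelial interleukins. In the small intestine of mice most carry CD8, many of them the CD8 alpha homodimer and not the alpha-beta heterodimer, and they hold granzymes ready. Helper and regulatory T cells, which carry CD4, lie mainly in the lamina propria below the epithelium, and T cells also surround the B cell follicles of the gut wall.

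By the reads that the values imply, the libraries held between 16879261 and 25909530 fragments in the mutants, and between 14206893 and 21246300 in the controls. The targeted gene, Nkx2-2 (chr2:147003282-147012138, minus strand, mm9, protein coding), stood at 0.748, 0.744 and 0.666 FPKM in the mutants, against 1.00, 1.03 and 1.27 FPKM in the controls, with each mutant below each control. FPKM counts fragments scaled to transcript length and to library depth. The difference on the log2 scale was −0.54 (SE 0.16, adjusted p = 0.79 in limma). Xist was at 23.2 FPKM in mutant 3 and 34.0 FPKM in control 3 and at 0.0642 FPKM or less in the other libraries, so each group held 1 library that reads as female. Genes of pancreatic acinar cells took 0.246%, 0.273% and 1.11% of fragments in the mutants and 0.00808%, 0.0461% and 1.02% in the controls. Control 3 stood apart in genes of B cell follicles, which are given after the members.

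All 38 genes had a value in each library. The T cell markers Cd3d, Cd3e, Cd3g, Cd247, Cd8a, Cd8b1 and Cd4 were above 0 in all 6 libraries, but at unlike levels. Cd3g, Cd8a and Cd3e stood at 8.22 FPKM or more. The lowest values were 4.46 FPKM for Cd4, 3.87 FPKM for Cd3d, 2.39 FPKM for Cd247 and 0.647 FPKM for Cd8b1. Itgae stood at 7.65 FPKM or more. By mean level over the libraries the order began with Gzma, Gzmb, Cd7, Cd3g, Nkg7 and Cd8a and ended with Foxp3, Eomes and Ifng. Gzma, Gzmb and Cd7 alone made up 66.2%, 71.2% and 69.5% of the members' summed FPKM in the mutants and 65.4%, 69.7% and 67.4% in the controls. The summed level was 478, 463 and 558 FPKM in the mutants, against 396, 471 and 398 FPKM in the controls, so the groups overlapped. The members together drew 0.050%, 0.0471% and 0.0570% of the implied fragments in the mutants and 0.0432%, 0.0484% and 0.0423% in the controls. In a sample of whole tissue, fewer cells of a type and less RNA per cell cannot be told apart.

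**Figure D1:**
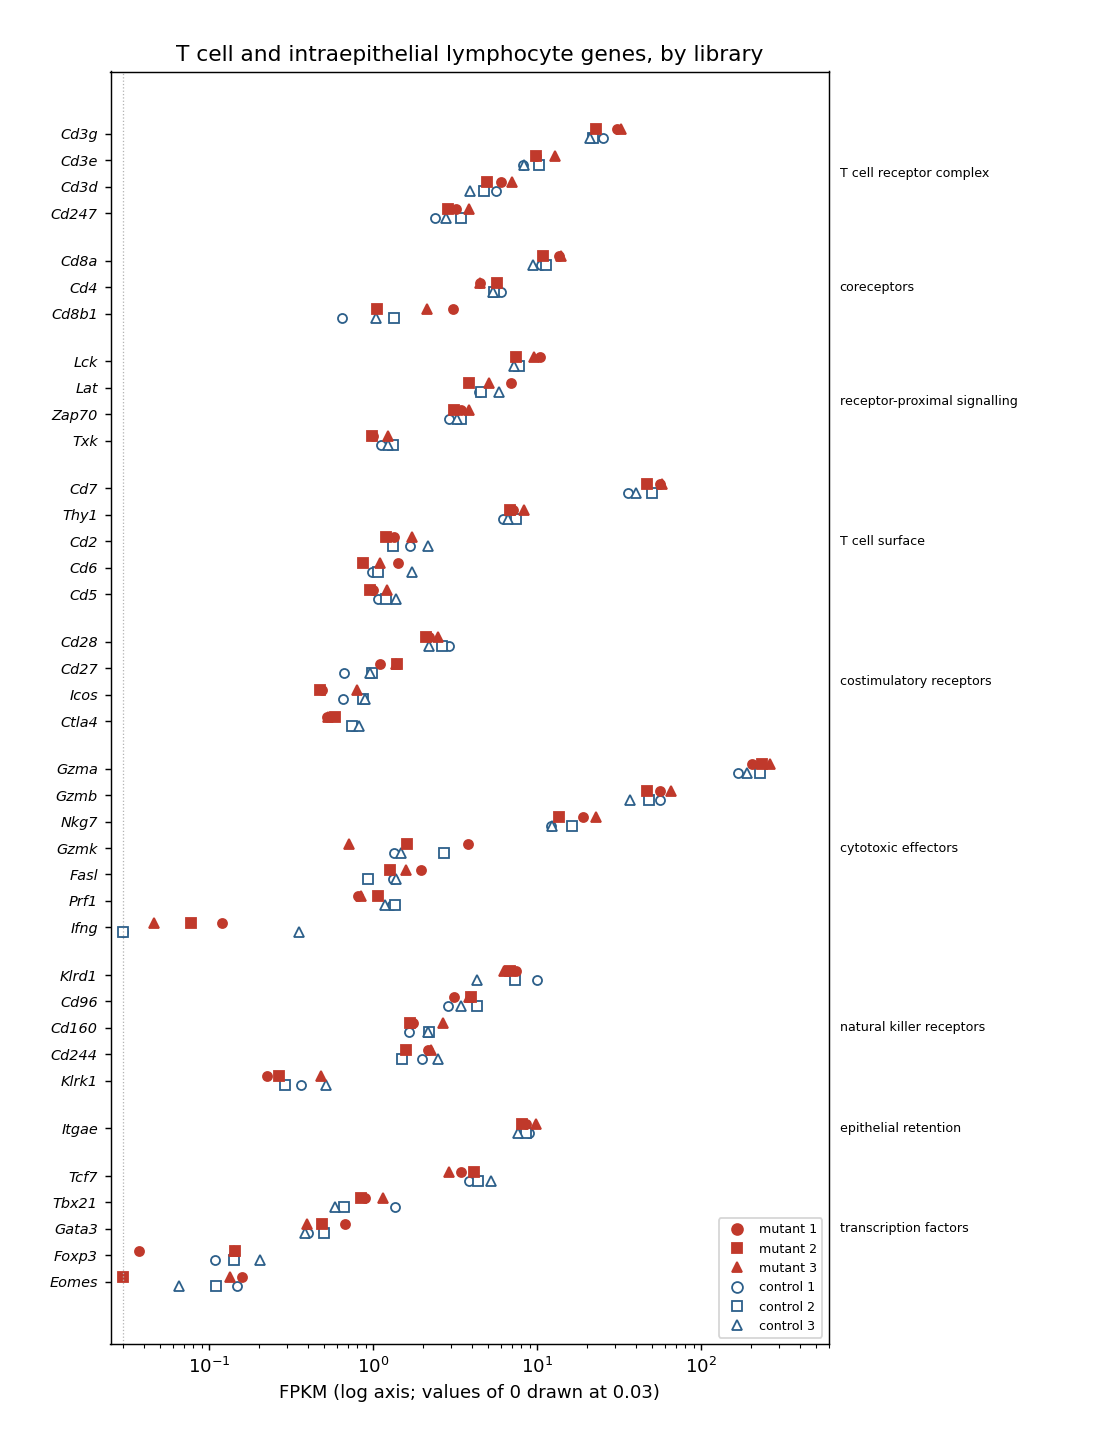
FPKM of the 38 genes in each library on a log axis, grouped by role, with filled red symbols for the 3 mutants and open blue symbols for the 3 controls; values of 0 are drawn at 0.03. Levels span from Ifng, at 0 in 2 controls, to Gzma at 264 FPKM in mutant 3, and the groups do not overlap in Cd27, Ctla4 and Prf1.

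None of the 37 members that could be tested passed an adjusted p of 0.05 in limma on log2(FPKM + 0.1), a scale that understates the change of low genes, beside 0.0% of all 15864 tested rows; Ifng lay under the filter, a mean of 0.1 FPKM. At an unadjusted p of 0.05, 2 members were higher in the mutants (Cd7 and Cd27), beside 1.49% of all rows, and 2 were lower (Ctla4 and Prf1), beside 4.32% of all rows. With the replicate number as a block, 3 members were higher and 1 was lower at that threshold. The groups did not overlap for 1 gene above the controls, Cd27, and for 2 below them, Ctla4 and Prf1, where 3.13% and 9.92% of all rows did so. The log2 fold change was positive for 22 members and negative for 15, with a median of 0.06, while 38.7% of all rows were positive and their median was −0.05. In a weighted fit on implied reads (limma with voom weights) no member passed at the adjusted threshold either, and 1 was past an unadjusted p of 0.05. In the text that follows, log2 fold changes are mutant minus control from limma, and adjusted p-values are over all 15864 rows.

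**Figure D2:**
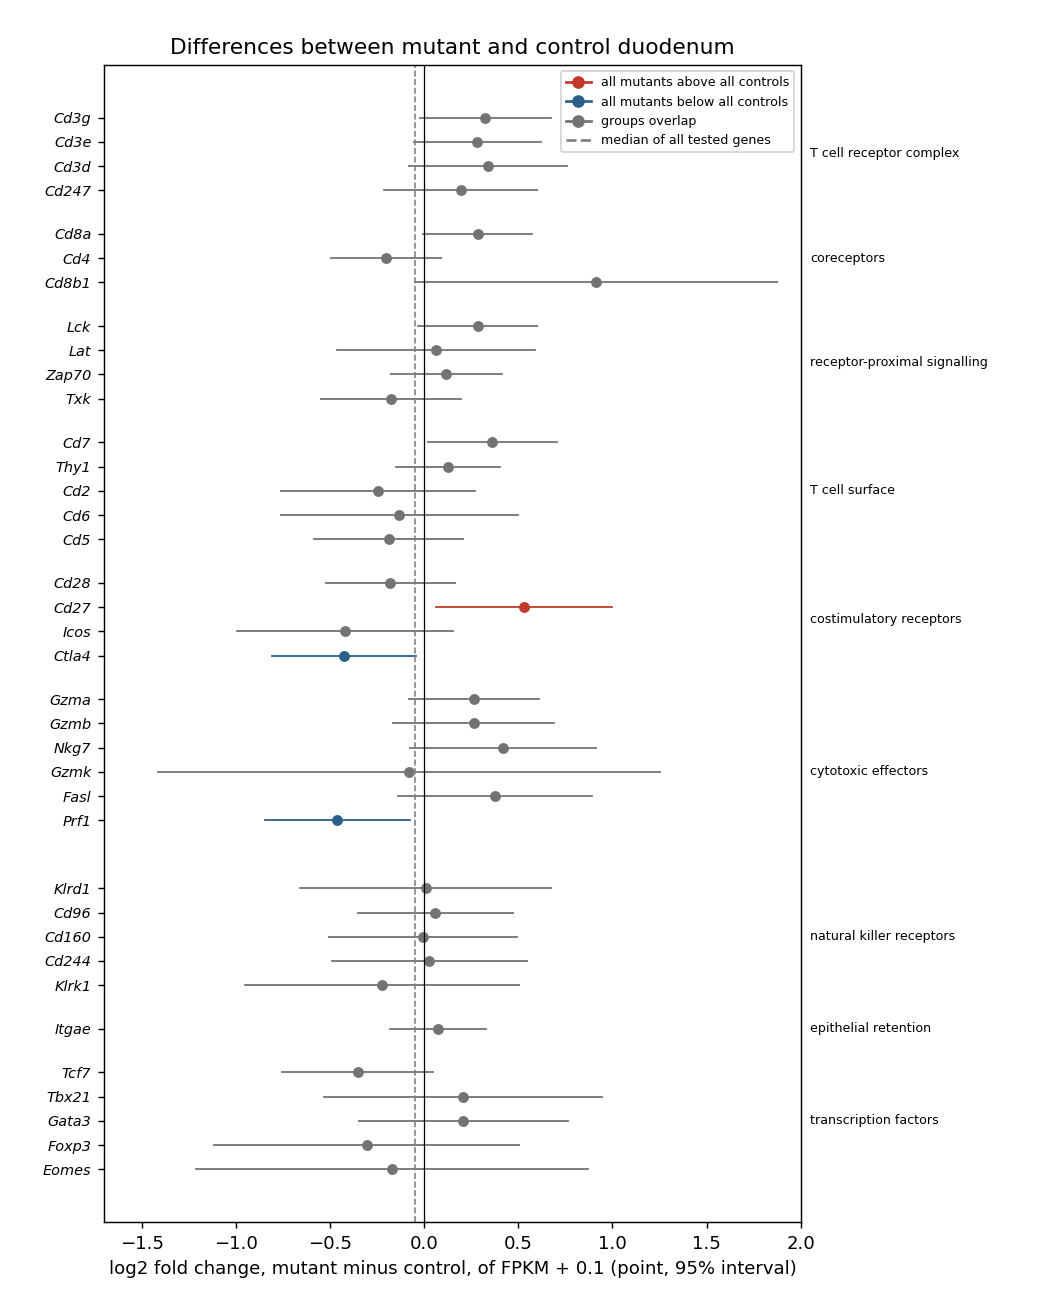
Log2 fold change of FPKM + 0.1, mutant minus control, for the 37 tested members, with 95% intervals from limma; the dashed line is the median of all tested rows, −0.05. The intervals of Cd7 and Cd27 lie above 0 and those of Ctla4 and Prf1 below it, and all 37 adjusted p-values are 0.79 or more.

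The receptor complex turns binding of antigen into a signal, and its CD3 chains are shared by nearly all T cells. Cd3g, the gamma chain (chr9:44777655-44788514, minus strand, mm9), measured 30.5, 22.9 and 32.5 FPKM in the mutants and 25.2, 21.8 and 20.9 FPKM in the controls. Mutants 1 and 3 lay above all 3 controls, and mutant 2 lay among them. The log2 fold change was 0.32 (SE 0.15, adjusted p = 0.79 in limma). Cd3e, the epsilon chain (chr9:44806826-44817673, minus strand), stood at 9.88, 9.83 and 12.9 FPKM in the mutants, against 8.22, 10.2 and 8.27 FPKM in the controls, where control 2 reached above mutants 1 and 2. Cd3d, the delta chain (chr9:44789869-44795135, plus strand), had 6.02, 4.95 and 7.04 FPKM in the mutants and 5.58, 4.73 and 3.87 FPKM in the controls. Cd3g and Cd3d lie 1354 bases apart on opposite strands, and Cd3e follows Cd3d at 11690 bases. Cd247, the zeta chain with the signalling motifs (chr1:167718812-167801284, plus strand), gave 3.19, 2.84 and 3.82 FPKM in the mutants and 2.39, 3.41 and 2.80 FPKM in the controls. All 4 log2 fold changes were positive, from 0.19 to 0.34, and their median of 0.30 was 0.10 with the male libraries alone. Summed over the chains, mutants held 49.6, 40.5 and 56.3 FPKM and controls 41.4, 40.2 and 35.8 FPKM, with mutant 2 below control 1. Cd247 shares 6000 bases with Pou2f1, which averaged 1.99 FPKM, so part of the Cd247 signal may belong to Pou2f1.

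The coreceptors bind MHC molecules beside the receptor, CD8 on class I and CD4 on class II. Cd8a, the chain of both CD8 dimers (chr6:71323421-71329165, plus strand, mm9), stood at 13.6, 10.8 and 13.9 FPKM in the mutants and 10.6, 11.3 and 9.50 FPKM in the controls. Mutants 1 and 3 were above all controls and mutant 2 was between controls 1 and 2. Means were 12.8 ± 1.71 FPKM in the mutants and 10.4 ± 0.887 FPKM in the controls (SD, n = 3 each), a log2 fold change of 0.28 (95% interval −0.01 to 0.57, adjusted p = 0.79 in limma), and of 0.15 with the male libraries alone. Cd8b1, the chain found in the heterodimer alone (chr6:71272806-71287445, plus strand), had 3.07, 1.06 and 2.13 FPKM in the mutants and 0.647, 1.33 and 1.05 FPKM in the controls, from only 62, 33 and 56 implied fragments in the mutants and 11, 34 and 25 in the controls. It had the greatest log2 fold change of the 37 members, 0.91, with an interval of −0.05 to 1.87 that spans 0. The values without 1 library each ran between 0.59 and 1.31. Cd4, the coreceptor of helper T cells (chr6:124814711-124838227, minus strand), measured 4.47, 5.68 and 4.46 FPKM in the mutants and 5.98, 5.43 and 5.37 FPKM in the controls. Here mutants 1 and 3 were the low ones, with mutant 2 inside the controls' range, and the log2 fold change was −0.20 (SE 0.12, adjusted p = 0.79 in limma).

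The balance of these genes within a library does not depend on its scaling, and the pairs below were chosen after their values were seen, so they carry no test. Cd8a over Cd4 was 3.04, 1.91 and 3.12 in the mutants and 1.77, 2.07 and 1.77 in the controls. Mutants 1 and 3 were thus far above the controls, while mutant 2 stood among them. Cd4 over Cd3g was 0.147, 0.248 and 0.137 in the mutants and 0.237, 0.249 and 0.257 in the controls, again with mutant 2 beside the controls. Cd8a over Cd3g, by contrast, was 0.446, 0.473 and 0.429 in the mutants and 0.419, 0.515 and 0.454 in the controls, with no separation. Cd8a over Cd8b1, which is high where the alpha chain is in excess, was 4.43, 10.2 and 6.55 in the mutants, against 16.3, 8.43 and 9.08 in the controls, and the groups overlapped through mutant 2.

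**Figure D3:**
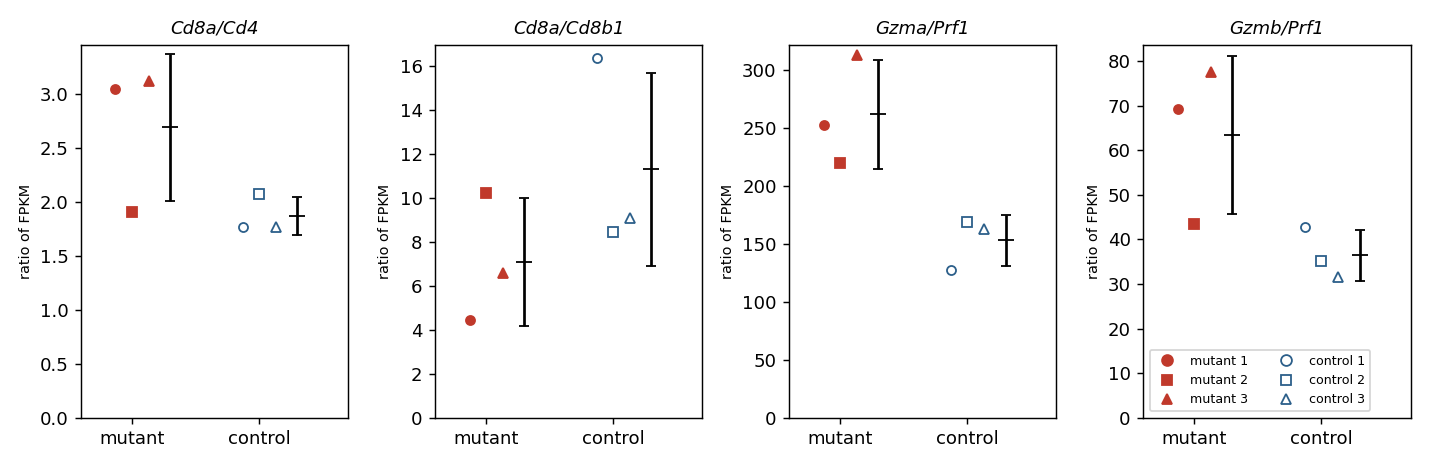
Ratios of FPKM within each library for Cd8a over Cd4, Cd8a over Cd8b1, Gzma over Prf1 and Gzmb over Prf1, with mutants left and controls right; bars are the mean ± SD of 3 libraries. Gzma over Prf1 was 262 ± 47.2 in the mutants and 153 ± 22.2 in the controls, and mutant 2 lies within the controls' range of Cd8a over Cd4.

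Lck, the kinase that phosphorylates the CD3 chains first, had 10.5, 7.48 and 9.61 FPKM in the mutants and 7.41, 7.76 and 7.20 FPKM in the controls. It shared the pattern of Cd8a, with mutants 1 and 3 above all controls and mutant 2 among them, and its log2 fold change was 0.28 (SE 0.13, adjusted p = 0.79 in limma). Zap70, the kinase recruited to the phosphorylated chains, stood at 3.45, 3.09 and 3.86 FPKM in the mutants and 2.92, 3.41 and 3.22 FPKM in the controls. Lat, the adaptor that Zap70 phosphorylates, ranged from 3.82 to 6.88 FPKM in the mutants and from 4.44 to 5.81 FPKM in the controls. The Tec family kinase gene Txk ranged from 0.990 to 1.24 FPKM in the mutants and from 1.12 to 1.32 FPKM in the controls. The log2 fold changes of Zap70, Lat and Txk were 0.12, 0.06 and −0.18, and each interval spanned 0. Of 23 other genes of receptor signalling, 10 were positive and 13 negative, with a median of −0.04 and none past the adjusted threshold. Prkcq, the protein kinase C of the T cell synapse, was the one with the smallest p, at 1.33, 1.30 and 1.48 FPKM in the mutants and 2.08, 1.68 and 1.85 FPKM in the controls. Each mutant lay below each control, with a log2 fold change of −0.42 (SE 0.14, adjusted p = 0.79 in limma).

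Among the surface proteins, Cd7 (chr11:120898063-120900792, minus strand, mm9), an immunoglobulin family protein of T and natural killer cells, measured 56.0, 47.0 and 57.9 FPKM in the mutants and 35.7, 50.4 and 39.9 FPKM in the controls. Mutant 2 lay below control 2, so the groups overlapped. The means were 53.6 ± 5.78 FPKM in the mutants and 42.0 ± 7.57 FPKM in the controls (SD, n = 3 each), a log2 fold change of 0.36 (SE 0.14, adjusted p = 0.79 in limma). It ran from 0.25 to 0.50 as each library was left out. Thy1, a glycoprotein of the T cell membrane, had 7.08, 6.79 and 8.35 FPKM in the mutants and 6.19, 7.45 and 6.68 FPKM in the controls, a log2 fold change of 0.13. Cd2, the adhesion receptor for CD48 in mice, Cd5, which damps receptor signals, and its neighbour Cd6, 50364 bases away, had log2 fold changes of −0.24, −0.19 and −0.13. Control 3 was the highest library for all 3 of these genes, at 2.16, 1.38 and 1.73 FPKM, and without it the values were −0.07, −0.10 and 0.10.

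The costimulatory receptors give T cells a second signal or a brake. Cd27 (chr6:125182640-125187045, minus strand, mm9), a receptor of the tumour necrosis factor family, measured 1.09, 1.39 and 1.38 FPKM in the mutants and 0.666, 0.979 and 0.961 FPKM in the controls. All mutants lay above all controls, with 21.9, 42.3 and 36.9 implied fragments in the mutants and 9.60, 24.1 and 22.9 in the controls. The log2 fold change was 0.53 (95% interval 0.06 to 1.00, adjusted p = 0.79 in limma), and 0.60 without control 3. Cd27 shares 4406 bases with E130112N10Rik, which averaged 0.373 FPKM, and since no source used here gives the strand setting of the counting, reads of these genes cannot be told apart. Ctla4, the brake that competes for the ligands of CD28 (chr1:60965869-60972674, plus strand), measured 0.520, 0.586 and 0.532 FPKM in the mutants and 0.742, 0.742 and 0.820 FPKM in the controls. All mutants lay below all controls, on 15 to 26 implied fragments in the mutants and 18 to 28 in the controls. Its log2 fold change was −0.43 (95% interval −0.81 to −0.05, adjusted p = 0.79 in limma) and −0.38 without control 3. Icos, a costimulator of helper T cells 62083 bases from Ctla4 (chr1:61034758-61057164, plus strand), had 0.490, 0.471 and 0.798 FPKM in the mutants and 0.653, 0.870 and 0.894 FPKM in the controls, a log2 fold change of −0.42 (SE 0.24). Mutant 3 lay above control 1, so the groups overlapped. Cd28, the main costimulator (chr1:60803232-60830203, plus strand), had 2.18, 2.10 and 2.48 FPKM in the mutants and 2.90, 2.64 and 2.19 FPKM in the controls, a log2 fold change of −0.18.

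Cytotoxic lymphocytes kill by releasing perforin, which opens the target membrane, and granzymes, the proteases that enter through it. Gzma (chr13:113884035-113891189, minus strand, mm9) was the most abundant member, at 205, 236 and 264 FPKM in the mutants and 167, 230 and 191 FPKM in the controls. Control 2 lay above mutant 1, and the means of 235 ± 29.96 FPKM in the mutants and 196 ± 31.6 FPKM in the controls (SD, n = 3 each) gave a log2 fold change of 0.27 (SE 0.15, adjusted p = 0.79 in limma). Gzmb (chr14:56877695-56881097, minus strand) had 56.1, 46.6 and 65.5 FPKM in the mutants and 55.9, 47.8 and 37.0 FPKM in the controls, a log2 fold change of 0.26 with all libraries and of −0.02 with the male libraries alone. The perforin gene Prf1 (chr10:60760584-60767011, plus strand) lay the other way, at 0.809, 1.07 and 0.845 FPKM in the mutants and 1.31, 1.36 and 1.18 FPKM in the controls. All mutants lay below all controls, on 25, 51 and 34 implied fragments in the mutants and 34, 53 and 43 in the controls. The log2 fold change was −0.46 (95% interval −0.85 to −0.07, adjusted p = 0.79 in limma), and −0.52 without control 3. Gzma over Prf1 was 253, 220 and 313 in the mutants and 128, 169 and 163 in the controls, and Gzmb over Prf1 was 69.4, 43.5 and 77.5 in the mutants and 42.7, 35.2 and 31.5 in the controls. In both ratios each mutant was above each control, though mutant 2 exceeded control 1 only narrowly for Gzmb over Prf1. Gzma over Gzmb averaged 4.25 ± 0.731 in the mutants and 4.32 ± 1.17 in the controls (SD, n = 3 each), with overlap.

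The promoters of these 3 effectors, and of Cd27 and Ctla4 as the other genes whose groups did not overlap, are printed 5′ to 3′ on the gene's strand from RefSeq (GRCm38.p6, a later build than the mm9 of the expression files). Each holds 250 bases before and 50 after the annotated start, and capitals mark TGTGGT (bound by RUNX factors), CAGGAA (ETS factors) and TGANTCA (AP-1) on either strand, so that ACCACA and TTCCTG are the reversed forms of the RUNX and ETS letters. The Gzma window is chr13:113100932-113101231 (minus strand), the Gzmb window chr14:56262285-56262584 (minus), the Prf1 window chr10:61297586-61297885 (plus), the Cd27 window chr6:125236978-125237277 (minus) and the Ctla4 window chr1:60908775-60909074 (plus).
Gzma: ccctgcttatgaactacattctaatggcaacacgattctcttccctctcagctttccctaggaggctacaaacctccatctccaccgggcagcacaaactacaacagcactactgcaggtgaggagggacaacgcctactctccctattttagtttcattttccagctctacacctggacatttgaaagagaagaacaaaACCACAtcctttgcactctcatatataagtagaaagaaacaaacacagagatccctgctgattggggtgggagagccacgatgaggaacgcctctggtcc
Gzmb: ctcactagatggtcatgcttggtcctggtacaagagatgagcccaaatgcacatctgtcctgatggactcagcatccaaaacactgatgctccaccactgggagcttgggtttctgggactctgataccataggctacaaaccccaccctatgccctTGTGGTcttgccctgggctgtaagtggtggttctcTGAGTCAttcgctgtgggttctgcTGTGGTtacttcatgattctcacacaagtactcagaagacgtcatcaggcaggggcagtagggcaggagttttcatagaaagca
Prf1: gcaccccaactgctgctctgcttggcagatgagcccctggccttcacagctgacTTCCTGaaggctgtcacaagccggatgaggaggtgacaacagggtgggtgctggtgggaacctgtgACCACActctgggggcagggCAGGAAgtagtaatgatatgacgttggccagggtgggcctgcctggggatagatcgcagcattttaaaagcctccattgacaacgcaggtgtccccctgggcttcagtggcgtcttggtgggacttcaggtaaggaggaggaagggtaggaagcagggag
Cd27: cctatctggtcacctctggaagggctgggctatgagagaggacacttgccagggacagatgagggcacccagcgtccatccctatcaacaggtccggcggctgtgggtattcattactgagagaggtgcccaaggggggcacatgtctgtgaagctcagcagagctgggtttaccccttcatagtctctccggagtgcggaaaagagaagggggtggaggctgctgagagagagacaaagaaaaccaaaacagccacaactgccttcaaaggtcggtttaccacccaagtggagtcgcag
Ctla4: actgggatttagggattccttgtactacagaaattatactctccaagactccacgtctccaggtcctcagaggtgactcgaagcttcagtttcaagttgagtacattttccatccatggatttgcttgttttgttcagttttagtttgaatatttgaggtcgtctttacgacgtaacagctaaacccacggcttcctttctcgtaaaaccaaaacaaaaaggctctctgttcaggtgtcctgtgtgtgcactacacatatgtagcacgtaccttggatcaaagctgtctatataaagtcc

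Gzma held 1 RUNX match, Gzmb 2 RUNX and 1 AP-1 match, and Prf1 1 RUNX and 2 ETS matches, while these letters did not occur in the Cd27 and Ctla4 windows. The table matched 27 of the 38 members, with 34 promoters. RUNX letters were in 12 of these 34 promoters (35.3%), against 16.8% of all 32817 promoters of the same length. ETS letters were in 17 of 34 (50%), against 30.6%, and AP-1 letters in 2 of 34 (5.88%), against 7.81%. Matches of different motifs may overlap within a window, several promoters belong to the same gene, and a match is not evidence of a bound factor.

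The remaining effectors were more scattered. Nkg7, a protein of cytotoxic granules, had 19.0, 13.6 and 22.8 FPKM in the mutants and 12.1, 16.4 and 12.3 FPKM in the controls, with mutants 1 and 3 above all controls and mutant 2 among them (log2 fold change 0.42, SE 0.21, adjusted p = 0.79 in limma). Fasl, the death ligand, had 1.96, 1.27 and 1.58 FPKM in the mutants and 1.32, 0.934 and 1.38 FPKM in the controls, a log2 fold change of 0.38. Gzmk, a further granzyme gene 70892 bases from Gzma (chr13:113962082-113971105, minus strand), ranged from 0.709 to 3.80 FPKM in the mutants and from 1.34 to 2.68 FPKM in the controls. Its log2 fold change of −0.08 carried an SE of 0.56, the widest among the members. Ifng, the interferon of activated T cells, was at 0.120, 0.0778 and 0.0460 FPKM in the mutants, from 2, 2 and 1 implied fragments, and in the controls it was listed at 0 in controls 1 and 2 and at 0.354 FPKM, from 7 fragments, in control 3. At this depth no difference in Ifng was detectable.

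Natural killer receptors on intraepithelial T cells sense stress ligands and MHC class I relatives. The 5 members of this kind had log2 fold changes between −0.22 and 0.06, with a median of 0.01. Klrd1, a partner chain of inhibitory and activating receptors, had 7.46, 6.86 and 6.29 FPKM in the mutants and 9.95, 7.36 and 4.31 FPKM in the controls, so that the controls spanned the mutants on both sides. Its log2 fold change was 0.01 with control 3 and −0.32 without it. Klrk1, which encodes the activating receptor NKG2D and lies 11545 bases from Klrd1, was at 0.225, 0.267 and 0.482 FPKM in the mutants and 0.363, 0.290 and 0.514 FPKM in the controls. Cd160, a receptor for TNFRSF14, ranged from 1.67 to 2.65 FPKM in the mutants and from 1.66 to 2.18 FPKM in the controls. Cd244, a receptor for CD48, ranged from 1.60 to 2.25 FPKM in the mutants and from 1.49 to 2.47 FPKM in the controls. Cd96, a receptor for the poliovirus receptor protein, ranged from 3.12 to 3.95 FPKM in the mutants and from 2.84 to 4.27 FPKM in the controls. All 5 genes overlapped between the groups.

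Itgae, the integrin chain that holds these cells to epithelial E-cadherin (chr11:72904097-72960951, plus strand, mm9), had 8.58, 8.10 and 9.86 FPKM in the mutants and 8.97, 8.51 and 7.65 FPKM in the controls. The log2 fold change was 0.08 (SE 0.11, 95% interval −0.18 to 0.33, adjusted p = 0.89 in limma). Itgae over Cd3g was 0.281, 0.354 and 0.303 in the mutants and 0.356, 0.390 and 0.366 in the controls, with mutant 2 only just below control 1. Gsg2 shares 2811 bases with Itgae and averaged 5.24 FPKM, so part of the Itgae signal may belong to it.

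Of the transcription factors, Tcf7, which keeps T cells in a naive or memory state, had 3.41, 4.14 and 2.91 FPKM in the mutants and 3.84, 4.35 and 5.23 FPKM in the controls. Mutant 2 lay above control 1, and the log2 fold change of −0.35 (SE 0.17, adjusted p = 0.79 in limma) was −0.24 without control 3 and −0.12 with the male libraries alone. Tbx21, the T-bet factor of type 1 and cytotoxic cells, had 0.892, 0.844 and 1.15 FPKM in the mutants and 1.36, 0.667 and 0.581 FPKM in the controls, where control 1 exceeded all mutants. Its log2 fold change was 0.21 with control 3 and −0.01 without it. Gata3, a factor of type 2 helper cells, ranged from 0.396 to 0.675 FPKM in the mutants and from 0.386 to 0.504 FPKM in the controls. Foxp3, the factor of regulatory T cells, and Eomes, a relative of Tbx21, stayed at or below 0.203 FPKM in all libraries, on fewer than 12 implied fragments each. Foxp3 also shares 1435 bases with Ccdc22, which averaged 8.01 FPKM. No difference in Foxp3 or Eomes was detectable at this depth.

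Counted by kind of T cell, 9 of the 13 tested genes that are cytotoxic effectors, natural killer receptors or CD8 chains were positive, with a median log2 fold change of 0.06. Of the 7 genes grouped as costimulatory, helper or regulatory (Cd4, Cd27, Cd28, Icos, Ctla4, Foxp3 and Gata3), 5 were negative and 2 positive, and their median was −0.20. Their summed level was 9.47, 10.9 and 10.2 FPKM in the mutants and 11.4, 11.3 and 10.8 FPKM in the controls, with mutant 2 just above control 3, so the groups overlapped. A wider list of helper cytokines and innate lymphoid genes had 2 positive and 9 negative among 11 tested, with a median of −0.30. All rows had a median of −0.05, and 38.7% of them were positive. Ccr6, a chemokine receptor of type 17 cells and B cells, was the one with the smallest p, at 0.413, 0.459 and 0.504 FPKM in the mutants and 0.658, 0.598 and 1.13 FPKM in the controls (log2 fold change −0.64, SE 0.26, adjusted p = 0.79 in limma). Control 3 was the highest library for Ccr6, and without it the log2 fold change was −0.38. The median of the wider list was the value of Il10, which had 2 to 8 implied fragments and a log2 fold change of 0.004 without control 3. Il4 had at most 2 implied fragments in any library. Cxcr5 had 59 in control 3 and 11 or fewer elsewhere, and its log2 fold change was −0.12 without control 3. The wider list's median was −0.23 without control 3. It was −0.11 with 1 FPKM added in place of 0.1, and −0.47 with 0.01 added. No gene of either list passed the adjusted threshold.

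As with acinar genes and Xist, control 3 stood apart from the other controls in markers of B cells and lymphoid follicles. Their 12 genes summed to 21.5, 21.7 and 33.0 FPKM in the mutants and 23.2, 27.2 and 60.8 FPKM in the controls. Ms4a1, which encodes the B cell protein CD20, was at 0.194, 0.126 and 0.967 FPKM in the mutants and 0.115, 0.205 and 3.69 FPKM in the controls. Cxcl13, the chemokine of follicles, was at 3.07, 2.65 and 4.09 FPKM in the mutants and 2.61, 2.44 and 12.8 FPKM in the controls. Control 3 was the highest library in both genes, and mutant 3 came next. Pax5, the lineage factor of B cells, was listed at 0 in 2 mutants and 2 controls. All 12 log2 fold changes were negative with a median of −0.51. Without control 3 the median was 0.10, but Cr2 and Pax5 fell under the filter in that fit and are not part of it. The sum of the 7 costimulatory, helper and regulatory members was lower in control 3 than in the other controls, and their median was −0.23 without that library. Single genes differed: Ctla4, Icos and Foxp3 were highest in control 3, at 0.820, 0.894 and 0.203 FPKM. Cd4, Cd28 and Gata3 had their lowest control value there, at 5.37, 2.19 and 0.386 FPKM, and Cd27 lay between the other controls. The part of follicle cells in the values of Cd2, Cd5, Cd6, Tcf7 and these 7 members was not tested.

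**Figure D4:**
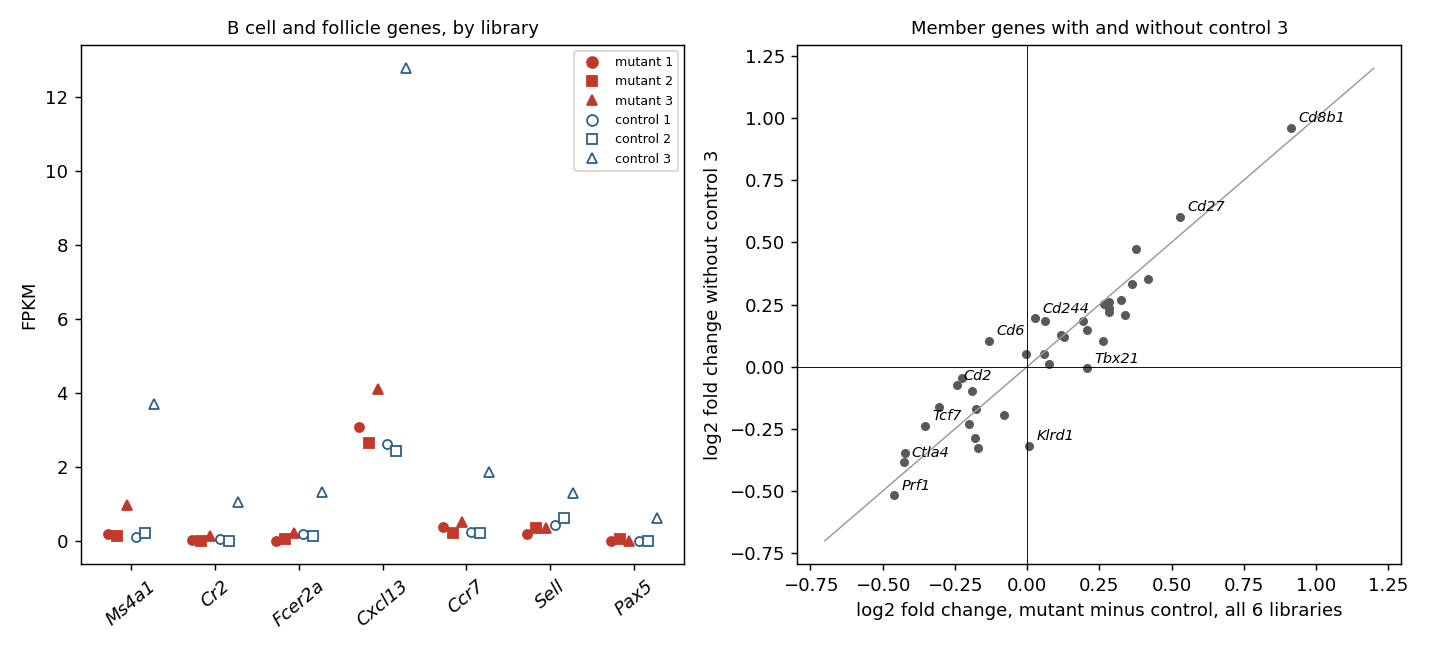
Left, FPKM of 7 B cell and follicle genes in each library, mutants before controls; right, the log2 fold change of each member with all 6 libraries (horizontal) and without control 3 (vertical), with the line of equality. Control 3 is the highest library for all 7 follicle genes, and without it Cd6 and Cd244 lie higher and Klrd1 and Tbx21 lower.

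Genes shared by all leukocytes were nearly level. The 8 genes had a median log2 fold change of −0.01, and their sums were 289, 277 and 273 FPKM in the mutants and 250, 308 and 298 FPKM in the controls. Ptprc, which encodes the pan-leukocyte protein CD45, had 17.0, 15.7 and 15.9 FPKM in the mutants and 18.2, 17.1 and 18.6 FPKM in the controls, with each mutant below each control by a small margin (log2 fold change −0.15, SE 0.07, adjusted p = 0.79 in limma). The 8 epithelial genes had a median of 0.01 and sums of 4893, 4929 and 4542 FPKM in the mutants and 4748, 4946 and 4357 FPKM in the controls. The acinar genes had a positive log2 fold change in all 16 rows, with a median of 3.13, but were uneven within both groups, and none passed the adjusted threshold. Other natural killer genes were low apart from Tyrobp and Fcer1g, which stood at 30.3 FPKM or more in all libraries. Ncr1, which marks natural killer and innate lymphoid cells, was at 0.143, 0.155 and 0.366 FPKM in the mutants and 0.113, 0.0755 and 0.241 FPKM in the controls. Of the 14 genes on that list, 10 were tested, with 7 positive, 3 negative and a median of 0.09. Tyrobp, an adaptor that myeloid cells also use, was at 67.5, 67.1 and 75.9 FPKM in the mutants and 55.3, 64.4 and 51.5 FPKM in the controls, with each mutant above each control (log2 fold change 0.30, SE 0.10, adjusted p = 0.79 in limma).

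Genes for the homing and upkeep of intraepithelial lymphocytes were split evenly, with 10 positive and 10 negative and a median of 0.00. The epithelial chemokine Ccl25, which draws these cells to the small intestine, had 416, 500 and 533 FPKM in the mutants and 382, 472 and 443 FPKM in the controls, and its receptor gene Ccr9 had 3.39, 4.23 and 3.25 FPKM in the mutants and 4.23, 3.90 and 3.96 FPKM in the controls. Il15, the cytokine that sustains them, had 14.8, 21.0 and 16.5 FPKM in the mutants and 14.8, 19.7 and 14.4 FPKM in the controls. These 3 genes overlapped between the groups. Itga4, the integrin chain used for entry into the gut wall, had 3.17, 3.77 and 3.12 FPKM in the mutants and 4.65, 4.12 and 4.15 FPKM in the controls, with each mutant below each control (log2 fold change −0.36, SE 0.12, adjusted p = 0.79 in limma). Ccl5, a chemokine made by cytotoxic T cells, had 245, 177 and 270 FPKM in the mutants and 154, 180 and 138 FPKM in the controls, with mutant 2 below control 2 (log2 fold change 0.54, SE 0.18, adjusted p = 0.79 in limma). Btnl6, a butyrophilin-like gene of the epithelium, had 200, 105 and 192 FPKM in the mutants and 110, 104 and 113 FPKM in the controls, again with mutant 2 among the controls. Il7r, the receptor chain for interleukin 7, had 2.07, 1.76 and 2.40 FPKM in the mutants and 3.03, 2.35 and 3.13 FPKM in the controls, a log2 fold change of −0.43.

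Ligands that lymphocyte receptors bind had 6 positive and 5 negative among 11 tested, with a median of 0.01. H2-T23, a nonclassical MHC class I gene whose product binds the receptors that contain Klrd1, had 179, 134 and 256 FPKM in the mutants and 115, 108 and 79.6 FPKM in the controls. Each mutant lay above each control, with a log2 fold change of 0.88 (SE 0.25, adjusted p = 0.79 in limma), and of 0.47 with the male libraries alone. H2-T10, a further gene of this family, lay the other way, at 5.31, 7.44 and 3.84 FPKM in the mutants and 7.10, 9.23 and 8.59 FPKM in the controls, with mutant 2 above control 1 (log2 fold change −0.62, SE 0.24, adjusted p = 0.79 in limma). H2-T22 was at 9.41, 5.01 and 13.9 FPKM in the mutants and 4.51, 3.93 and 6.09 FPKM in the controls, with mutant 2 below control 3 and a log2 fold change of 0.85. H2-T3, whose product binds the CD8 alpha homodimer in mice, had 86.2, 112 and 136 FPKM in the mutants and 102, 67.9 and 55.4 FPKM in the controls, with control 1 above mutant 1. These genes have near-identical copies and vary between strains, and the mice were of mixed background, so the share of each copy is uncertain. Ulbp1, a ligand of NKG2D but not the only one, and Cd70, the ligand of CD27, were listed at 0 in all 6 libraries. The Ulbp1 entry lies on sequence with no assigned chromosome, and whether its 0 reflects mapping was not tested.

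Transcript values were split within 12 of the 38 members, and the other 26 had a single transcript. For Cd8a, NM_001081110 had 8.55, 8.56 and 11.6 FPKM in the mutants and 7.58, 9.11 and 8.02 FPKM in the controls, and NM_009857 had 5.05, 2.27 and 2.35 FPKM in the mutants and 3.00, 2.14 and 1.48 FPKM in the controls. In this estimated split, the excess of mutant 1 in Cd8a lay in NM_009857 and that of mutant 3 in NM_001081110. The 2 forms share a start site and are 3099 and 3130 bases long, and how certain the split is was not tested. For Cd27, NM_001033126 had 1.09, 1.02 and 1.21 FPKM in the mutants and 0.503, 0.794 and 0.961 FPKM in the controls, so the groups stayed apart in this transcript. For Txk, NM_013698 held nearly all of the level in the mutants and control 1, and NM_001122754 in control 3. The Txk forms are 2247 and 2256 bases long and are assigned to different start sites.

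The authors' deposited table of their own count test listed all 38 members, with none under an adjusted p of 0.05 and 2 under an unadjusted p of 0.05. In the authors' deposited table, Cd8a had mean counts of 753 in the mutants and 592 in the controls (fold 1.27, p = 0.0367), and Cd7 had 897 in the mutants and 671 in the controls (fold 1.34, p = 0.0405), with an adjusted p of 1 for each from DESeq. The same deposited table by the authors gave folds of 0.764 for Prf1, 0.760 for Ctla4 and 1.61 for Cd27, none of them past p = 0.05. In it 26 members had a fold above 1 and 12 below.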

How the data were processed

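RNA of the duodenum next to the stomach, all cell types together, was sequenced from 3 mutants and 3 controls. The submitters' processing notes name mm9 as the genome and CASAVA 1.8.2, Cufflinks, TopHat and DESeq as tools, in no stated order; no source used here gives other versions, read length or strand settings. The authors' deposited gene and transcript tables hold FPKM with its confidence bounds, and the coverage column deposited beside it was not used. The authors' deposited comparison table gives mean normalized counts as signal, fold (a ratio), log2 fold change and p-value from DESeq, and was only quoted.

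Rows (23699, for 23235 symbols) with a mean of at least 0.1 FPKM were tested (15864) as log2(FPKM + 0.1) with limma 3.58.1 in R 4.3.3, with a mean-variance trend and Benjamini-Hochberg adjustment; 7835 rows were left out. Python 3.11.15, pandas 2.3.3, numpy 2.4.6 and matplotlib 3.10.9 made the tables and figures. Fragments per gene were implied from each FPKM and its upper bound, taken as 2 standard errors away: 88.2% to 88.5% of single-transcript genes below 500 fragments came within 0.05 of a whole number. The fit was tested on simulated data. Nothing in the labels says whether replicates are separate litters, so p-values measure only the spread between these samples. Deviations of same-numbered mutants and controls correlated at 0.106, 0.207 and 0.389 over the tested rows. Mutant 2 with control 1 reached 0.127, above the first numbered pair, and the third pair is also the pair with high Xist. The labels state no pairing. The main fit was therefore unpaired, and the replicate number served as a block in an alternative only. In total 19 alternatives were tried; the sex term, the male libraries alone and the fit on implied reads were chosen after seeing the data.

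The members and the 9 context lists (131 genes, 129 found) were chosen with earlier results of these data known. All members are described; of each context list, the 3 with the smallest p served as the pool for naming, and further genes were named for their role after their values were seen, as were the ratios and the choice of promoters. The values of 1 gene of a context list are not reported here. Exact permutation of 3 against 3 cannot give p below 0.10, so none was used.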

Additional observations from a re-analysis of the deposited data

How the results depend on the processing

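No member passed an adjusted p of 0.05 in limma under any of the 19 alternatives, and the smallest adjusted p of a member was 0.61, shared by 9 members with the replicate block. The members' median log2 fold change, 0.06, stayed between 0.02 (acinar genes taken out of the totals) and 0.18 (without mutant 2). Of 37 members, 26 kept their sign in all alternatives they could be fitted in and 11 did not; none that was past an unadjusted p of 0.05 reversed. The count of members higher at an unadjusted p of 0.05 was 2 as reported. It was 0 with no filter, 5 with quantile normalization, 5 with trimmed mean scaling, 1 without acinar genes in the totals, 1 with limma without a trend, 1 with library quality weights, 1 with a sex covariate, 0 with the male libraries alone and 1 with voom on implied reads. Leaving out 1 library gave 0 (without mutant 3) to 7 (without mutant 2). The count lower, 2 as reported, was 1 at a mean of at least 1 FPKM, 0 with quantile normalization, 1 with trimmed mean scaling, 1 with the replicate block, 0 with the male libraries alone and 0 with voom on implied reads. Leaving out 1 library gave 0 (without mutant 1 or control 2) to 4 (without mutant 2). Over all rows, 0 passed the adjusted threshold as reported, with 922 at an unadjusted p of 0.05. The number was 1 without acinar genes in the totals, 2 with the replicate block, 1 with a sex covariate, 1 with the male libraries alone and 0 to 3 (without mutant 1) with 1 library left out, with 2 without mutant 2 and 2 without control 2. With the replicate block, 3 members were higher at an unadjusted p of 0.05. An unadjusted p of 0.05 was met by Cd27 in 13 of 19 alternatives, by Prf1 in 12 of 19, by Cd7 in 8 of 19 and by Ctla4 in 8 of 18. The causes of these shifts were not tested, beyond the fewer libraries in the fits that leave some out. Depth limits Ifng, Foxp3, Eomes and Klrk1 most.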

Other observations

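Mutant 2 was the lowest of the 3 mutants for 25 of 37 members (67.6%), whereas it was the lowest for 27.1% of all tested rows with 3 distinct mutant values. Mutant 3 was the highest of the mutants for 21 of 37 members (56.8%), against 28.7% of all such rows. These counts were made after the values were seen, and members expressed in the same cells do not vary independently. Without mutant 2, the log2 fold change was farther from 0 for 25 of 37 members and nearer to it or equal for 12. In that fit the values were 1.31 for Cd8b1, 0.62 for Nkg7, 0.48 for Cd3g, 0.42 for Lck and 0.40 for Cd8a, and −0.32 for Cd4 and −0.48 for Tcf7. Among those nearer to 0 were Icos at −0.30, Cd27 at 0.47, Cd2 at −0.14 and Cd28 at −0.13.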
